A study of Daphnia magna with 335 samples.

Results

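Gabapentin, an anticonvulsant and pain drug built as an analogue of the neurotransmitter GABA, was tested on whole Daphnia magna, a freshwater water flea used in toxicity testing, in one exposure of a survey of chemicals found in tributaries of the Great Lakes. The libraries described here are the 9 pools exposed to its 3 highest nominal concentrations, 6.677, 21.1 and 66.67 µM, with 3 pools at each, taken by the chemical and level code of their columns in the count table. They are 9 of the 335 libraries of the series, which covers 12 chemicals. They were set against 6 DMSO pools run alongside them, which come in 2 sets named CON and XtraC with 3 pools each. What sets the XtraC pools apart is not given in the labels used here. Each pool held up to 5 animals exposed for 24 h in single wells, and all wells, treated ones included, carried DMSO at no more than 0.34%. Per the labels, animals of a concentration were pooled within each of 3 plates. Pools carry the letters A, B and C, and the letter entered the model as a block; whether a letter stands for a plate is not stated in the labels used here. Nothing in the labels says that pools came from separate cultures, so p-values measure the spread between pools of 1 exposure.

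In mammals gabapentin does not act on GABA receptors; it binds the α2δ subunit of voltage-gated calcium channels, lowers calcium entry at nerve terminals, and is carried into cells by a transporter of large neutral amino acids. It leaves the body unchanged in urine and passes through sewage treatment, which is how it reaches rivers. Whether these targets respond in Daphnia cannot be read here, because the probes are labelled by transcript identifiers only. None of those identifiers (0 matched) was found in the RefSeq gene table for the organism, and no probe sequence was at hand. Probes are therefore given by identifier with no gene name, role or sequence, and the whole-body origin was not checked against marker genes.

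TempO-Seq counts ligated pairs of detector oligos, 1 count per read of a probe. The table holds 2378 probes for 1988 gene identifiers. Total counts were 188393 to 889391 in the 9 gabapentin pools (median 618873), against 346696 to 875369 in the 6 DMSO pools (median 751219). The A pools at 21.1 and 66.67 µM were the smallest of the 15 libraries, with 188393 and 285960 counts, and the 2 under 50% of their median. The 10 most abundant probes took 26.7% to 36.4% of counts in gabapentin pools and 27.9% to 31.2% in DMSO pools. Between any 2 of the 15 libraries the correlation of log2 CPM across probes was 0.892 to 0.990 (median 0.950). The filter on low counts left 1410 probes for testing. Of the 968 others, 198 had no count in any of the 15 libraries and 770 had some, up to 207 CPM in a gabapentin pool and 230.3 CPM in a DMSO pool. Levels below are CPM, counts scaled to a common library total, adjusted by edgeR's TMM factors (scaled CPM).

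No probe passed the test when the 9 gabapentin pools were compared with the 6 DMSO pools. By edgeR's quasi-likelihood test 0 of 1410 probes (0%) had an adjusted p below 0.05, the lowest being 0.999, and DESeq2 called 0. At an unadjusted p under 0.05 there were 47 probes (3.33%), of which 14 were higher and 33 lower in gabapentin pools. The median log2 fold change over all tested probes was 0.01. In no tested probe did all 9 gabapentin pools lie above, or all below, the 6 DMSO pools (0 in each direction). No probe had counts in every gabapentin pool and none in any DMSO pool, or the reverse (0 each).

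Level by level the count was also 0 in edgeR. At 6.677 µM 0 of 1410 probes passed (0%), the lowest adjusted p was 0.0557, and 178 probes (12.6%) had an unadjusted p under 0.05, 94 higher and 84 lower than in DMSO. At 21.1 µM 0 passed, the lowest adjusted p was 1.00, and 21 probes (1.49%) had an unadjusted p under 0.05, 9 higher and 12 lower. At 66.67 µM 0 passed, the lowest adjusted p was 0.265, and 121 probes (8.58%) had an unadjusted p under 0.05, 68 higher and 53 lower. DESeq2 called 22 probes at 6.677 µM (1.56%, of which 13 were higher and 9 lower). It called 0 at 21.1 µM and 5 at 66.67 µM (0.355%, all higher). It gave no adjusted p to 765 probes of low count at 6.677 µM and to 765 at 66.67 µM. These could not be called but stay in the 1410 over which the percents are taken. Leaving out 1 library gave edgeR calls in 3 cases: 5 at 6.677 µM without 21.1 µM pool B, and 2 and 1 at 66.67 µM without its own pools A and B. The lowest of the 3 concentrations held more small p-values than the middle one or the highest. In pools of whole animals fewer cells of a type and less RNA per cell cannot be told apart, so every difference here is one of relative counts.

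**Figure D1:**
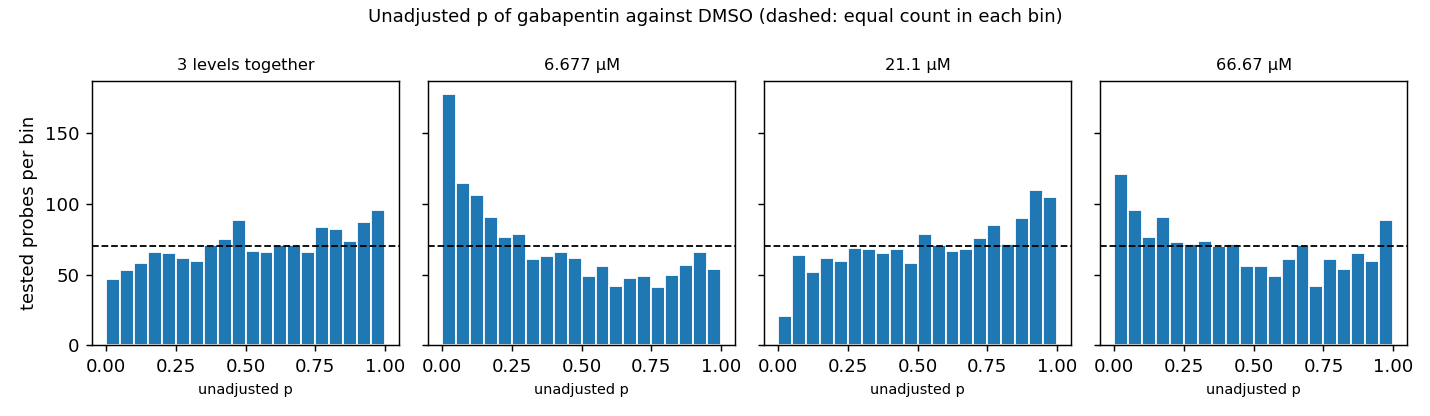
Unadjusted edgeR p-values (x axis, in bins of 0.05) of the 1410 tested probes, gabapentin against DMSO, for the 3 levels together and for 6.677, 21.1 and 66.67 µM; the y axis counts probes per bin, and the dashed line marks an equal count in every bin. The first bin holds 47, 178, 21 and 121 probes in that order, so it stands above the line at 6.677 and 66.67 µM and below it at 21.1 µM and for the levels together.

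The 12 probes with the lowest p over the 3 levels together show what the largest departures looked like. None was called (adjusted p 0.999 in edgeR), 9 were lower and 3 higher in gabapentin pools, and in each of them the pools of the 2 groups overlapped. They are described because a fixed rule names the lowest p-values where fewer than 12 probes pass.

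Among the 9 lower ones, Dapma7bEVm005089_97051 had the lowest p (unadjusted 0.000927, edgeR). Its scaled CPM was 82.7 to 110.2 (median 89.7) in the 9 gabapentin pools, against 105 to 126 (median 119.9) in DMSO pools, and 8 of 9 gabapentin pools lay below every DMSO pool. By level the pools A, B and C had 82.7, 110.2 and 104 at 6.677 µM, then 95.3, 86.3 and 99.4 at 21.1 µM, and 83.6, 89.7 and 82.7 at 66.67 µM. The log2 fold change was -0.35 (SE 0.08) with a 95% interval of -0.53 to -0.17. The 15 pools at the 5 lower concentrations, at 82.8 to 137 (median 115), took in the 6 DMSO pools and all but the 2 lowest of the 9 gabapentin pools.

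Dapma7bEVm003254_96682 showed a like picture, at 69.97 to 116 (median 94.96) scaled CPM in gabapentin pools, against 103 to 143 (median 116) in DMSO pools. Here too 8 of 9 gabapentin pools were below all DMSO pools, the exception being pool C at 21.1 µM. The log2 fold change was -0.37 (SE 0.12), with an interval of -0.63 to -0.11. Dapma7bEVm007373_95711 was lower by the smallest step of the 12: 366 to 464 (median 398) in gabapentin pools, against 404 to 515 (median 469.7) in DMSO pools, a log2 fold change of -0.19 (SE 0.06). In both probes the pools at the lower concentrations, at 63.8 to 132 (median 105) and 342 to 499.8 (median 436), reached below the gabapentin pools described here.

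Dapma7bEVm009746_97734 had 300.2 to 525 (median 416) scaled CPM in gabapentin pools, against 439.8 to 897 (median 539) in DMSO pools, and a log2 fold change of -0.44 (SE 0.13). The highest DMSO value was that of CON pool B, which stood apart from the other 5. Dapma7bEVm000784_96616 had 188 to 281 (median 220.5) in gabapentin pools, against 256 to 297 (median 267) in DMSO pools, and a log2 fold change of -0.27 (SE 0.09). By level its pools had 199.8, 188 and 205 at 6.677 µM, then 281, 203 and 264 at 21.1 µM, and 281, 223 and 220.5 at 66.67 µM, so 6 of 9 pools lay below all DMSO pools: the 3 at 6.677 µM, pool B at 21.1 µM, and pools B and C at 66.67 µM.

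The other 4 lower probes were scarce or uneven between pools. Dapma7bEVm004624_96213 had 12.1, 36.3 and 22.5 scaled CPM at 6.677 µM, then 35.1, 44.6 and 52.5 at 21.1 µM, and 26.6, 32.4 and 35.4 at 66.67 µM. Its DMSO pools ranged more widely, at 26.99 to 182 (median 72.8), and the log2 fold change was -1.30 (SE 0.34) with an interval of -2.03 to -0.58. Dapma7bEVm008074_97126 was at 1.72, 0 and 2.37 at 6.677 µM, then 45.2, 0 and 24.1 at 21.1 µM, then 3.80, 3.82 and 1.97 at 66.67 µM, and at 1.29 to 69.6 (median 41.7) in DMSO pools. This probe had the largest estimate of the 12, -2.87 (SE 0.90) in log2, and the widest interval, -4.93 to -1.01. At the 5 lower concentrations it ran over 0 to 169.7 (median 47.2), so pools with almost none and pools with many counts occurred there as well.

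Dapma7bEVm009530_96275 had 0 to 10.1 (median 7.12) in gabapentin pools, against 6.52 to 16.1 (median 13.2) in DMSO pools, and Dapma7bEVm021235_97456 had 0 to 12.1 (median 3.80) in gabapentin pools, against 2.17 to 34.2 (median 16.1) in DMSO pools. Their log2 fold changes were -0.88 (SE 0.30) and -1.45 (SE 0.51). Both rested on 0 to 7 counts per gabapentin library.

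Of the 3 higher probes, Dapma7bEVm002345_97930 was at 164 to 281 (median 229) scaled CPM in gabapentin pools, against 159.9 to 222 (median 181) in DMSO pools, with 6 of 9 gabapentin pools above all DMSO pools and a log2 fold change of 0.32 (SE 0.10). Dapma7bEVm004984_95758 was at 4.32 to 27.3 (median 11.4) in gabapentin pools, against 2.17 to 8.997 (median 4.77) in DMSO pools, with a log2 fold change of 1.23 (SE 0.42). Dapma7bEVm028352_95807 was above all DMSO pools in the 3 pools at 6.677 µM and in pool B at 21.1 µM: its pools had 58.6, 99.8 and 116 at 6.677 µM, then 50.2, 71.9 and 52.5 at 21.1 µM, and 53.2, 49.6 and 47.2 at 66.67 µM, and DMSO pools had 33.2 to 57.99 (median 45.7). Over the 3 levels its log2 fold change was 0.51 (SE 0.17), and at 6.677 µM alone it was 1.01 (SE 0.22).

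**Figure D2:**
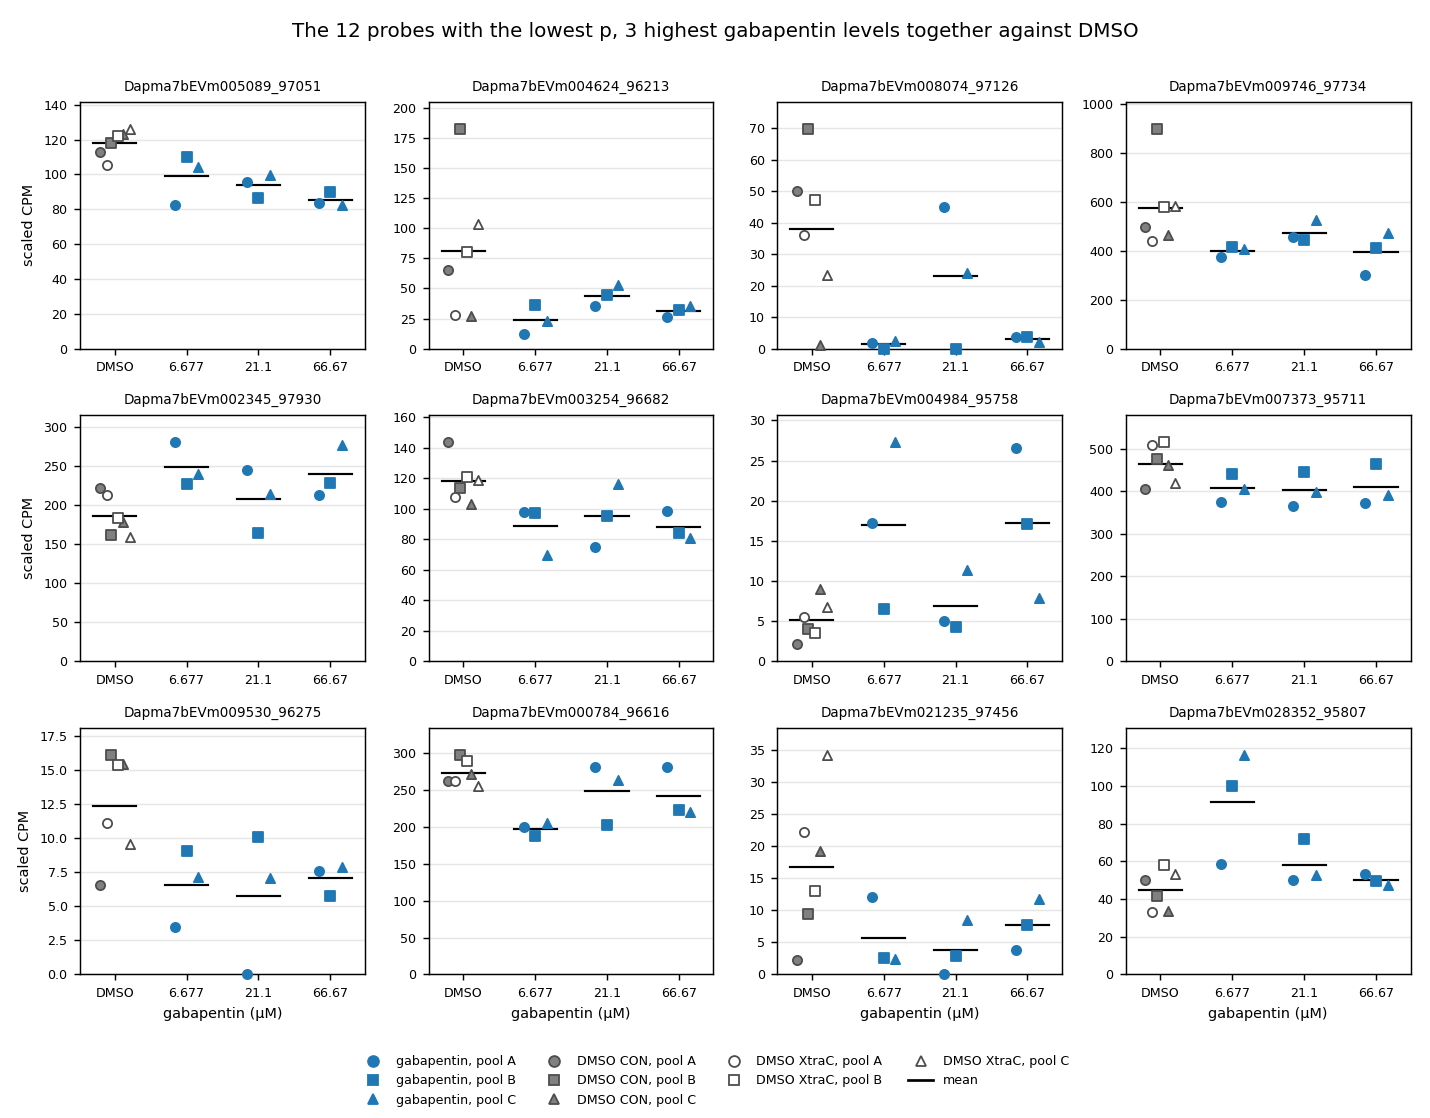
Scaled CPM (y axis, linear, from 0) of the 12 probes with the lowest p in each pool, in DMSO and at 6.677, 21.1 and 66.67 µM gabapentin (x axis); symbols give the letter, filled and open grey symbols the CON and XtraC sets, and bars the group mean. In all 12 panels blue and grey points overlap; for Dapma7bEVm005089_97051, 8 of 9 gabapentin pools lie below every DMSO pool.

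How large a change these pools left room for was read from the 95% interval of each probe's log2 fold change. For the 3 levels together the interval lay within a 2-fold change in either direction for 1281 of 1410 probes, 90.9% (exact binomial interval over probes 89.2% to 92.3%; probes are not independent). It lay within 1.5-fold for 73.3% and within 3-fold for 95.8%. The median probe's interval reached a 1.29-fold change, and 90% of probes stayed within 1.95-fold. With intervals widened to hold for all 1410 probes at once (Bonferroni), 57.2% of probes stayed within 2-fold and 78.0% within 3-fold, and the median reach was 1.85-fold.

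With 3 pools a level the reach was longer. Within 2-fold lay 81.1% of probes at 6.677 µM, 82.3% at 21.1 µM and 79.9% at 66.67 µM, and within 1.5-fold 53.97%, 59.7% and 55.1%. With the wider intervals for all probes at once, 34.7%, 37.2% and 34.6% stayed within 2-fold. The reach shortened with abundance. Probes were split into 4 classes of like size by mean scaled CPM in DMSO pools. For the levels together 75.1% of intervals lay within 2-fold in the scarcest class, at 3.95 to 44.6, and 92.3%, 96.9% and 99.2% in the classes above it. In the most abundant class, from 391.0 upward, 96.3% were within 1.5-fold. At 66.67 µM alone 39.1% of the scarcest class and 97.7% of the most abundant were within 2-fold.

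**Figure D3:**
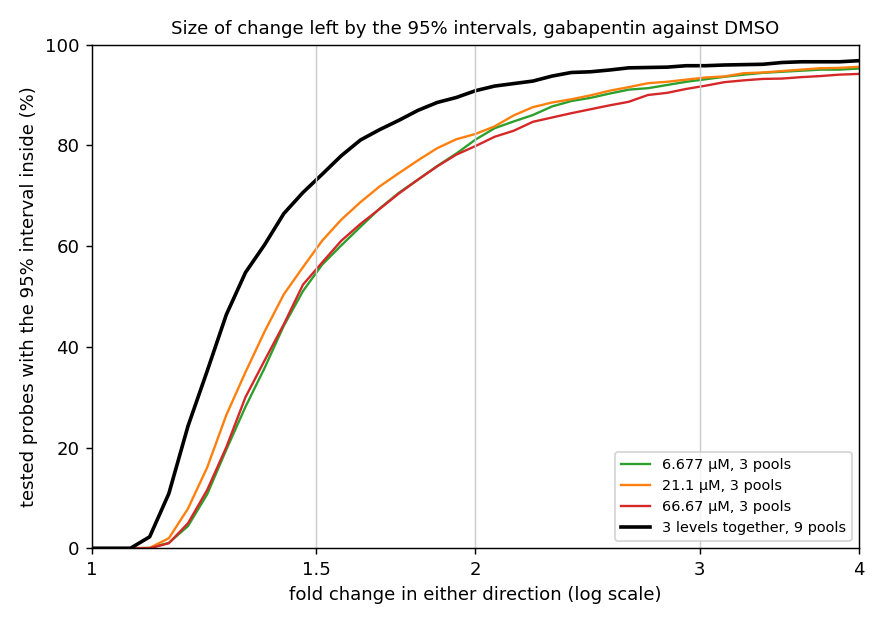
Percent of the 1410 tested probes (y axis) whose 95% interval for gabapentin against DMSO lies inside the fold change on the x axis (log scale), for the 9 pools together and for each concentration with 3 pools. At 2-fold the curves stand at 90.9% for the levels together and at 81.1%, 82.3% and 79.9% for 6.677, 21.1 and 66.67 µM.

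The 5 probes with the narrowest intervals of the 1410 show the best precision reached with the letter as a block. A difference between letters, such as that of the A pools below, is taken up by the block. How wide these 5 intervals are without it is not given here. Dapma7bEVm030706_96354 had 1826 to 2836 (median 2508) scaled CPM in gabapentin pools, against 1859 to 2665 (median 2459) in DMSO pools, and any change beyond 1.09-fold lay outside its interval. Dapma7bEVm005996_96757 had 1992 to 2333 (median 2162) in gabapentin pools, against 2063 to 2233 (median 2156) in DMSO pools, with a reach of 1.08-fold. Dapma7bEVm015242_97274 had 1279 to 1949 (median 1670.0) in gabapentin pools, against 1421 to 1853 (median 1735) in DMSO pools, with a reach of 1.09-fold. The remaining ones, Dapma7bEVm000177_96200 and Dapma7bEVm014958_97329, reached 1.09-fold and 1.10-fold. In 2 of these probes the A pools stood apart at every concentration, lowest in the first and highest in the second: Dapma7bEVm030706_96354 had 2041, 2610.5 and 2836 at 6.677 µM, then 1826, 2508 and 2415 at 21.1 µM, and 1945, 2509.8 and 2703 at 66.67 µM, and Dapma7bEVm014958_97329 had 2684, 2336 and 2233, 3005, 2420.0 and 2652 and 3070.1, 2439 and 2801 in the same order.

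The 10 most abundant probes in DMSO pools were bounded almost as well. The largest compatible change of the 10 ran between 1.13-fold (Dapma7bEVm010516_96901) and 1.33-fold (Dapma7bEVm010425_96130) for the levels together. The median reach in the most abundant of the 4 classes was 1.18-fold. Dapma7bEVm002814_97242, the most abundant, had 49609, 50487 and 51544 scaled CPM at 6.677 µM, then 54040.4, 58171 and 46596 at 21.1 µM, and 71734, 55844 and 81434 at 66.67 µM, against 48861 to 60242 (median 51076) in DMSO pools. Pools A and C at 66.67 µM were above every DMSO pool, while pool B was among them. Its log2 fold change at 66.67 µM was 0.42 (SE 0.13), with an adjusted p of 0.451 in edgeR and 0.0391 in DESeq2. Dapma7bEVm028555_96088 had 28193, 17072 and 22579 at 66.67 µM, against 14824 to 24814 (median 16009.6) in DMSO pools, and a log2 fold change of 0.38 (SE 0.12), with an adjusted p of 0.451 in edgeR. In Dapma7bEVm010425_96130, Dapma7bEVm004991_97269 and Dapma7bEVm015161_95937 pool C at 66.67 µM was likewise the highest of the 15, at 74300.5, 57814 and 27122 scaled CPM. Of the 10 most abundant probes 8 had their highest value of the 15 pools there. The share of all tested probes that were highest there was not worked out. That pool had 36.4% of its counts in its 10 most abundant probes, the top of the range given above. Its TMM factor, 0.82, was the lowest of the 15, and a lower factor gives higher scaled CPM. The count of 8 and the 36.4% both describe this library alone, so nothing is read from them about the concentration. Pool A at 66.67 µM came next in both measures, with a factor of 0.92 and a share of 32.6%. Pool B there had 1.01 and 29.2%. The part of these factors and shares in the values at 66.67 µM was not tested.

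Setting the highest concentration against the lowest of the 3 gave calls in edgeR where neither had any against DMSO. Between 66.67 and 6.677 µM, 24 of 1410 probes (1.7%) passed an adjusted p under 0.05 in edgeR, 12 of them higher at 66.67 µM and 12 lower there, and 297 (21.1%) had an unadjusted p under 0.05. DESeq2 called 82 (5.82% of 1410, of which 274 got no adjusted p), the 24 among them. The log2 fold changes of the 24 were 0.43 to 6.82 in size, and 21 were under 1. In 23 of the 24 the 3 pools of one concentration did not overlap the 3 of the other, as in 291 of all 1410 tested probes (20.6%). The 24 were picked by this same contrast, so nothing is read from that count.

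This result rested on the block and on single libraries. Without the letter as a block 0 probes passed. Leaving out 1 library gave 0 without 66.67 µM pool C, 6.677 µM pool A or 6.677 µM pool C, 5 without 66.67 µM pool A, 9 without 66.67 µM pool B, 8 without 21.1 µM pool C, 4 and 7 without DMSO CON pools B and C, and 3 and 6 without DMSO XtraC pools B and C. The count was 31 and 33 without 21.1 µM pools A and B, and 30 without 6.677 µM pool B. It was 27 without DMSO CON pool A and 25 without DMSO XtraC pool A. Without the 2 smallest libraries 7 passed. In a model over all 30 libraries of gabapentin and its DMSO pools 82 of 1440 passed (5.69%), 23 of the 24 among them. The same pools at 66.67 and 6.677 µM enter this model and DESeq2, so nothing is read from either overlap with the 24.

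The 2 largest fold changes belonged to scarce probes that ran high in some pools. Dapma7bEVm010082_95834 had 452, 28.6 and 23.6 scaled CPM at 66.67 µM, against 0, 0 and 2.37 at 6.677 µM, which is 146 counts over 3 pools against 2. The ratio of the 2 levels, each summed over its pools, was 124 (exact binomial interval 33.6 to 1031, counting error only), and the fitted log2 fold change of 6.82 depends on the prior count. Its DMSO pools, at 0 to 224 (median 8.19), and its lower-level pools, at 0 to 622 (median 1.82), held both empty and high pools. Dapma7bEVm006156_97367 had 11.4, 183 and 254 at 66.67 µM, against 5.17, 7.78 and 2.37 at 6.677 µM, for a log2 fold change of 4.73 (SE 1.12). Pools B and C at 66.67 µM were high and pool A was not, being within the DMSO range of 1.34 to 16.4 (median 9.58). A second probe of that gene, Dapma7bEVm006156_97378, too scarce for the 15-library test, had 11.4, 95.4 and 207 at 66.67 µM, against 3.44, 3.89 and 1.19 at 6.677 µM and 0 to 10.9 (median 3.65) in DMSO pools. The 2 probes were high in the same pools. Over the 36 DMSO pools of all 6 exposures Dapma7bEVm006156_97367 ran from 1.31 to 429.9 (median 42.8), so DMSO pools of other exposures reached higher than the 66.67 µM pools. Pools of 1(2H)-phthalazinone, tested in the same exposure, did so too. Over all its levels they ran from 0 to 473 in this probe, with a mean of 172 (SD 261) at 6.677 µM. In Dapma7bEVm010082_95834 they ran from 0 to 408.

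Of the abundant probes that were lower at 66.67 µM, Dapma7bEVm004430_96597 stood out. It had 1619, 1714 and 1758 scaled CPM at 66.67 µM, against 2699, 2729.7 and 3219.9 at 6.677 µM, for a log2 fold change of -0.75 (SE 0.16). Its DMSO pools were tightly set at 1825 to 1969.6 (median 1874), with all 3 pools at 66.67 µM below them and all 3 at 6.677 µM above them. The pools at 6.677 µM were also above the 15 lower-level pools, at 1503 to 2344 (median 1812). At 21.1 µM the pools had 1309, 2575 and 1623, pool B above the DMSO pools and pools A and C below them. Over the 36 DMSO pools of all 6 exposures Dapma7bEVm004430_96597 ran from 793 to 4618 (median 1519). That range holds all its pools at 66.67 and 6.677 µM. Dapma7bEVm015071_96150 had 1208, 1374 and 1181 at 66.67 µM, against 1681, 1881 and 1784 at 6.677 µM, for a log2 fold change of -0.50 (SE 0.08). Its DMSO pools had 1235 to 1389 (median 1349), below all pools at 6.677 µM, and this probe gave the lowest adjusted p of 6.677 µM against DMSO, 0.0557 in edgeR at a log2 fold change of 0.40 (SE 0.07). Over the 36 DMSO pools it ran from 950 to 2370 (median 1284), which holds its pools at 6.677 µM. Dapma7bEVm001525_97746 had 471, 471 and 423 at 66.67 µM, against 680.4, 574 and 690.2 at 6.677 µM and 449.8 to 549 (median 500.0) in DMSO pools.

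Dapma7bEVm004415_98049 had 45.6, 72.5 and 74.8 at 66.67 µM, against 103, 122 and 160.1 at 6.677 µM, for a log2 fold change of -1.02 (SE 0.22). Dapma7bEVm019267_97281 had 156, 240.5 and 218 at 66.67 µM, against 286, 337 and 363 at 6.677 µM, Dapma7bEVm028071_96843 had 72.2, 109 and 114 against 155, 149 and 185, and Dapma7bEVm015369_96857 had 2097, 3613 and 3129.6 against 3796, 4504 and 4909. In these 4 pool A was the lowest at each of the 2 concentrations, except in Dapma7bEVm028071_96843 at 6.677 µM, where pool B was. Their DMSO pools had 38.7 to 108 (median 79.5), 152 to 297 (median 249), 80.2 to 156 (median 127) and 2575 to 3875 (median 3686) in the order named. Pools B and C at 6.677 µM were above that range in 3 of the 4, and in Dapma7bEVm028071_96843 pool C was.

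The other 5 lower ones were Dapma7bEVm001645_96689 with 2959.9, 4361 and 4791 at 66.67 µM, against 4818, 5422 and 6283 at 6.677 µM, Dapma7bEVm002026_96198 with 901, 1195 and 1167 against 1437, 1421 and 1783, and Dapma7bEVm000066_96912 with 673, 1368 and 1331 against 1127, 1688 and 1979. Dapma7bEVm009851_96302 had 300.2, 365 and 366 at 66.67 µM, against 449.6, 479.6 and 581 at 6.677 µM, and Dapma7bEVm003199_97401 had 349.6, 469.5 and 445 against 582, 594 and 609.6. Their log2 fold changes were -0.46, -0.51, -0.52, -0.54 and -0.49 in that order. Dapma7bEVm000066_96912 was the one probe of the 24 whose pools overlapped, pool A at 6.677 µM being below pools B and C at 66.67 µM.

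Of the 12 probes higher at 66.67 µM, Dapma7bEVm004372_97365 had 551, 422 and 358 at 66.67 µM, against 331, 266 and 213 at 6.677 µM, for a log2 fold change of 0.73 (SE 0.13). Dapma7bEVm007609_96495 had 946, 691 and 629.9 at 66.67 µM, against 613, 487 and 446 at 6.677 µM, and Dapma7bEVm009581_96599 had 1691, 1107 and 1291 against 973, 850.3 and 962. In all 3 the A pools were the highest of their concentration, and at 21.1 µM pool A was the highest too, at 456.6, 1003 and 1385. DMSO pools had 237 to 445 (median 290.0), 510.2 to 874 (median 607) and 932 to 1234 (median 1067) in the order named.

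Dapma7bEVm000300_96926 had 422, 456 and 463 at 66.67 µM, against 320.4, 316 and 302 at 6.677 µM and 371 to 461 (median 411) in DMSO pools, with all 3 pools at 6.677 µM below the DMSO range and pool C at 66.67 µM just above it. Dapma7bEVm009759_97877 had 391, 342 and 378 at 66.67 µM, against 267, 273 and 241 at 6.677 µM and 265 to 341 (median 303) in DMSO pools, with all 3 pools at 66.67 µM above that range. Dapma7bEVm003127_97740 had 20267, 15404 and 22868 at 66.67 µM, against 13366, 13505 and 13507 at 6.677 µM, Dapma7bEVm000646_96431 had 5049.7, 4126 and 5236 against 3502, 3485 and 3079.9, and Dapma7bEVm001012_96367 had 464, 452 and 389.7 against 370.3, 338 and 273. Both probes of gene Dapma7bEVm010869 were called: Dapma7bEVm010869_96964 had 3013, 2853 and 2846 at 66.67 µM, against 2113, 2135 and 1983 at 6.677 µM, and Dapma7bEVm010869_97505 had 1926, 1920.0 and 1925 against 1497, 1487 and 1348. The 2 share a gene identifier and are not separate evidence, so the 24 probes stand for 23 gene identifiers.

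**Figure D4:**
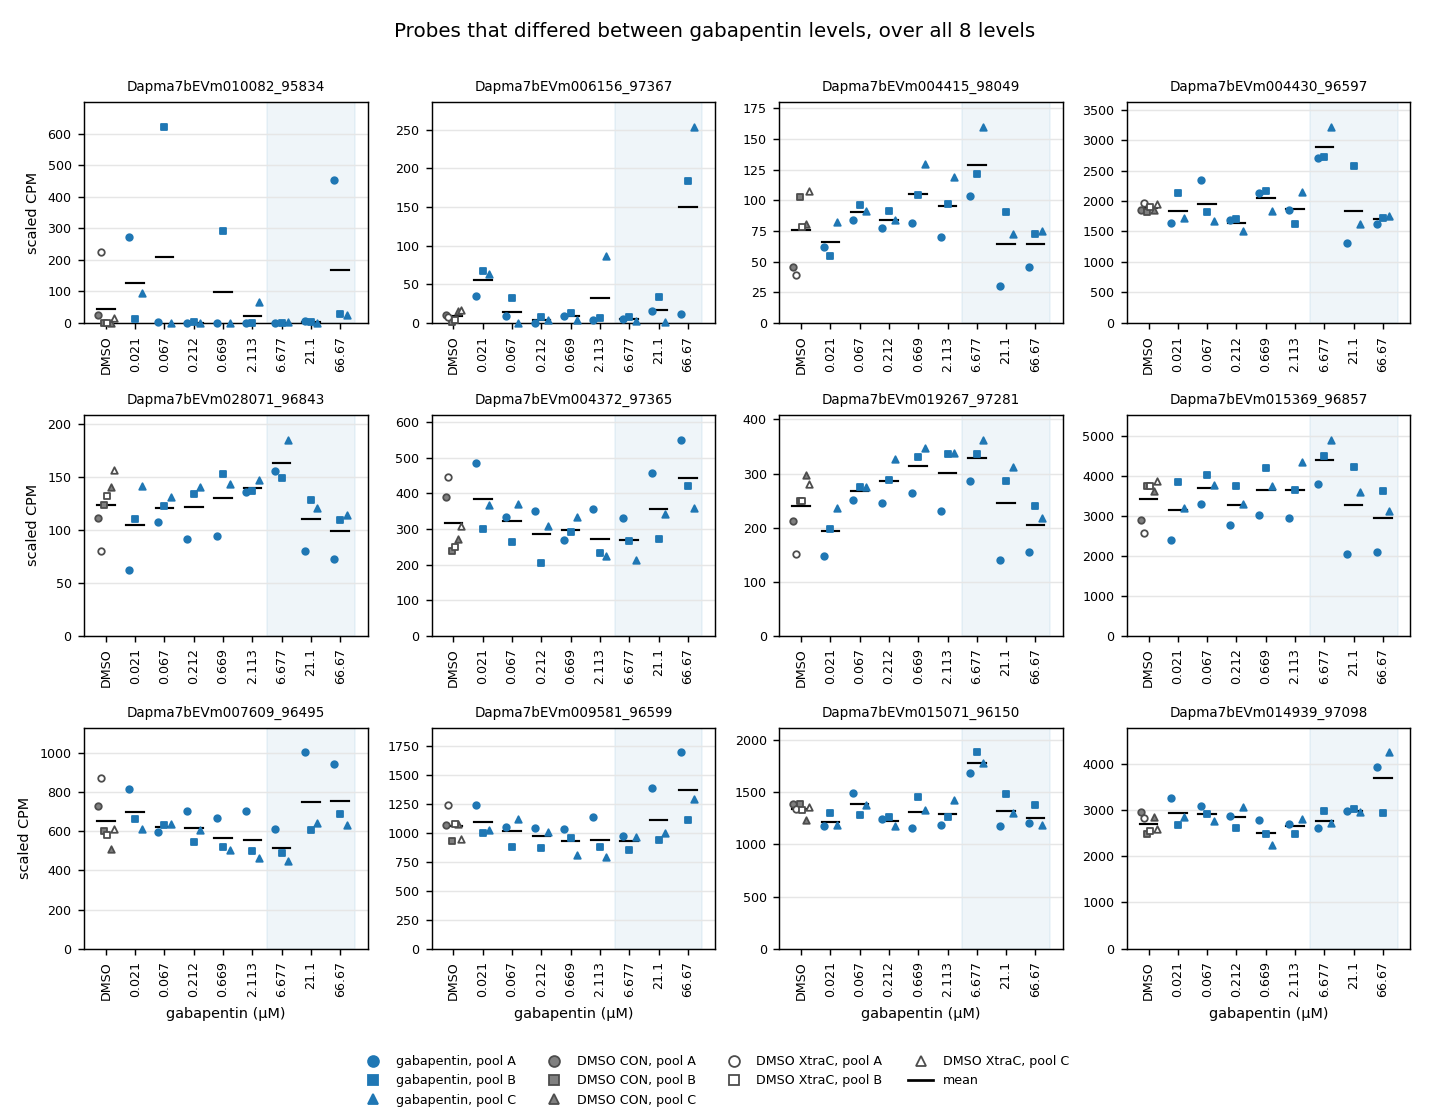
Scaled CPM (y axis, linear, from 0) in DMSO and at all 8 gabapentin levels in µM (x axis, shaded for the 3 highest) of the 10 largest differences between 66.67 and 6.677 µM and of 2 probes called against DMSO in the 30-library model; symbols as for the lowest p-values, bars for means. Dapma7bEVm004430_96597 and Dapma7bEVm015071_96150 have their 3 pools at 6.677 µM above all DMSO pools shown and all pools at lower levels. At 21.1 µM pool B is above the DMSO pools shown in both. DMSO pools of other exposures, not shown, reached higher in both probes.

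The same 2 concentrations of 1(2H)-phthalazinone, the chemical that shared the exposure and its DMSO pools, gave 0 calls in edgeR (0 of 1410, 0%; 82 with an unadjusted p under 0.05, 5.82%). Of the 24 probes 17 had the same sign as in gabapentin, and so did 826 of the 1397 probes tested in both (59.1%).

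Fitting all 8 gabapentin levels with the DMSO pools, 30 libraries in all, brought a few probes past the threshold against DMSO at 2 of the levels. At 0.021, 0.067, 0.212, 0.669 and 2.113 µM 0 of 1440 passed at each. At 6.677 µM 12 of 1440 passed (0.833%), of which 9 were higher and 3 lower than in DMSO. None did at 21.1 µM (0, 0%), and 3 did at 66.67 µM (0.208%), all higher. Unadjusted p-values under 0.05 numbered 92 (6.39%), 50 (3.47%), 134 (9.31%), 93 (6.46%) and 101 (7.01%) at the 5 lower levels in rising order. They numbered 211 (14.7%) at 6.677 µM, 40 (2.78%) at 21.1 µM and 140 (9.72%) at 66.67 µM. The largest of these counts was at 6.677 µM, and whether the levels differ in it was not tested.

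The 3 probes at 66.67 µM were Dapma7bEVm014939_97098, Dapma7bEVm006156_97367 and Dapma7bEVm006156_97378, of which the pair with the same gene identifier was described above. Dapma7bEVm014939_97098 had 3925, 2928 and 4242 scaled CPM at 66.67 µM, against 2477 to 2947 (median 2710.1) in DMSO pools. Pools A and C were above all DMSO pools and pool B was not. Its log2 fold change in that model was 0.45 (SE 0.08), with an adjusted p of 0.0122 in edgeR. In the 15-library test it was 0.45 (SE 0.10), with an adjusted p of 0.268.

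At 6.677 µM 8 of the 12 were among the 24 probes above: Dapma7bEVm015071_96150, Dapma7bEVm004430_96597, Dapma7bEVm001645_96689, Dapma7bEVm015369_96857, Dapma7bEVm019267_97281, Dapma7bEVm001525_97746 and Dapma7bEVm004415_98049, higher than in DMSO, and Dapma7bEVm000300_96926, lower. The 24 were 1.7% of the 1410 tested, but both lists use the same pools at 6.677 µM, so nothing is read from the overlap. The other 4 of the 12 were Dapma7bEVm020394_96692 and Dapma7bEVm030726_96833, higher, and Dapma7bEVm005904_97788 and Dapma7bEVm000784_96616, lower. Dapma7bEVm020394_96692 had 329, 384 and 467 at 6.677 µM, against 235 to 341 (median 295) in DMSO pools, and Dapma7bEVm030726_96833 had 127, 158 and 123 at 6.677 µM, against 80.97 to 106 (median 87.98) in DMSO pools. Dapma7bEVm005904_97788 had 286, 280.0 and 212 at 6.677 µM, against 320.0 to 446 (median 362) in DMSO pools, all 3 pools below. The log2 fold changes of these 3 in the 30-library model were 0.44 (SE 0.10), 0.61 (SE 0.14) and -0.52 (SE 0.11). Both lists were drawn up after their values were seen. In the 15 libraries DESeq2 also called 10 of the 12, against 22 of all 1410 probes at 6.677 µM (1.56%), and 1 of the 3. It could not call the others of the 3: Dapma7bEVm006156_97378 was not tested there, and Dapma7bEVm006156_97367 got no adjusted p. Nor did Dapma7bEVm004415_98049 among the 12. The same pools enter both fits, so nothing is read from these counts.

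No probe passed the edgeR test of the 9 pools against the 15 pools at the 5 lower concentrations (0 of 1440, 0%; lowest adjusted p 0.0699). At an unadjusted p under 0.05 there were 256 probes (17.8%), 131 higher and 125 lower at the high concentrations, and DESeq2 called 43 (2.99%). The lowest p-value belonged to Dapma7bEVm014958_97442, with a log2 fold change of 0.23 (SE 0.05). Within 2-fold lay 91.8% of the intervals of this comparison. Against 1(2H)-phthalazinone at its 3 highest concentrations 0 of 1410 probes passed (0%; DESeq2 0), with 92 at an unadjusted p under 0.05 (6.52%, 46 in each direction) and a lowest adjusted p of 0.427. The interval of that difference lay within 2-fold for 91.6% of probes. For the DMSO pools themselves, CON against XtraC, 0 of 1410 passed (0%; DESeq2 0), with 37 at an unadjusted p under 0.05 (2.62%). A p that misses the threshold does not show that these groups were alike.

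Pools of one group differed from each other. The median over tested probes of the SD of log2(scaled CPM + 1) was 0.31 between pools of one gabapentin level and 0.26 between the 6 DMSO pools. The first principal component of the 15 libraries held 32.6% of the variance and the second 19.9%. On the first, 4 of 9 gabapentin pools and 2 of 6 DMSO pools lay above 0: pool B at 6.677 µM (17.8), pool B at 21.1 µM (18.4), pools B and C at 66.67 µM (7.07 and 7.39), CON pool A (13.7) and XtraC pool C (11.2). The other 9 lay between -11.6 and -4.28. Each concentration had pools on both sides of 0. All 3 gabapentin B pools lay above it and both DMSO B pools below it.

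A set of probes that were nearly absent in some pools and abundant in others carried this axis. Dapma7bEVm010997_96071, with the largest weight, had 5.17, 1761 and 4.74 scaled CPM at 6.677 µM, then 0, 1059 and 4.26 at 21.1 µM, and 7.60, 118 and 197 at 66.67 µM, and 3.86 to 541 (median 140.2) in DMSO pools. Dapma7bEVm004490_97663 had 6.89, 2163 and 7.12, 15.1, 1420.1 and 5.68 and 3.80, 20.99 and 33.5 in the same order, and 5.53 to 413 (median 13.4) in DMSO pools. Dapma7bEVm004290_98026 had 18.9, 409.6 and 13.05, 25.1, 918 and 24.1 and 15.2, 544 and 655, and 16.6 to 765 (median 34.2) in DMSO pools. All 3 probes were high in pool B and low in pools A and C at both 6.677 and 21.1 µM.

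High and low pools of these probes occurred at the lower concentrations and under phthalazinone as well. Above 50 scaled CPM, a level chosen after the values were seen, Dapma7bEVm010997_96071 was found in 4 of 9 gabapentin pools, 3 of 6 DMSO pools, 6 of 15 pools at lower concentrations and 4 of 9 phthalazinone pools at the 3 highest concentrations. Dapma7bEVm004290_98026 was above it in 4 of 9, 2 of 6, 6 of 15 and 6 of 9 in that order. Dapma7bEVm003644_96155 was above it in 2 of 9, 1 of 6, 1 of 15 and 1 of 9. Such probes had wide intervals: Dapma7bEVm010997_96071 had a log2 fold change of -1.01 (SE 1.27) with an interval of -3.77 to 1.73, which leaves room for a 13.6-fold change. In DMSO pools of all 6 exposures it ran from 3.76 to 2554 (median 930.2). What sets the state of a pool is not given in the labels used here, and its part in the comparisons above was not tested.

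**Figure D5:**
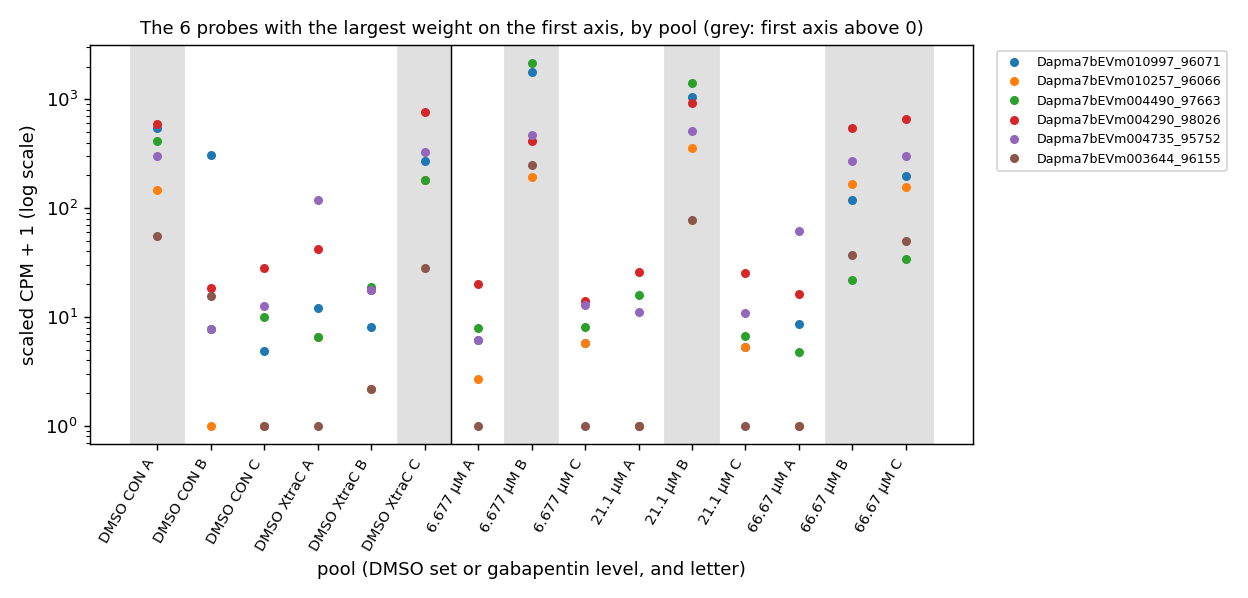
Scaled CPM plus 1 (y axis, log scale) of the 6 probes with the largest weight on the first principal component, in the 6 DMSO pools and the 9 gabapentin pools ordered by concentration (x axis); grey marks pools above 0 on that axis. The grey pools, 2 of 6 in DMSO and 4 of 9 in gabapentin, are high in most of these probes and occur in both groups and at every concentration; Dapma7bEVm010997_96071 is also high in CON pool B, which is not grey.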

How the data were processed

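TempO-Seq, a targeted assay that ligates pairs of detector oligos on RNA and sequences them, was run on pools of whole Daphnia magna. The authors deposited 1 table of raw probe counts for the series and, for gabapentin, a log2 table. The deposited log2 values were log2(count + 1) within 1e-06, with no scaling for library total. Reads were demultiplexed with bcl2fastq, per the submitters' processing notes; the sources used here give neither its version nor the aligner.

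Counts were tested with edgeR 4.0.16 in R 4.3.3 (TMM scaling, filterByExpr, quasi-likelihood F-test, Benjamini-Hochberg adjustment) on 15 libraries, with a term per concentration and the letter as a block. The 3 levels together were tested as the mean of their terms against DMSO. The test of 66.67 against 6.677 µM used the same model. Intervals of 95% came from unshrunk coefficients and their SE, and the log2 fold changes printed are edgeR's, slightly shrunk. DESeq2 1.42.0, limma 3.58.1 on the log2 table, other scaling and filters, and left-out libraries were alternatives. Figures used Python 3.11.15 and matplotlib 3.10.9. The edgeR test of the levels together was tried on simulated counts, without the filter. Those counts had the same change at all 3 levels of a probe and no difference between letters. The other tests were not covered, and the outcome is not given here.

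Probes named are those called, filled up to 12 by lowest p; the 5 narrowest intervals; the 10 most abundant in DMSO; and the 24 called between 66.67 and 6.677 µM. Those called in the 30-library model and the 10 of largest weight on the first component were chosen after their values were seen. The members and lists were chosen with earlier results of these data known. Totals of 188393 to 889391 counts limit the precision of scarce probes. Among the 54 libraries of the exposure 0 were identical.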

Additional observations from a re-analysis of the deposited data

Results flagged for a closer look

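Of 59 probe values checked over the 6 DMSO pools, 8 had one pool far from the other 5 by Dixon's ratio at its 95% critical value, which chance passes in about 1 in 20 groups. That rate does not hold for probes chosen because they were uneven between pools, as some of the 8 were. In scaled CPM these were 897 for Dapma7bEVm009746_97734 in CON pool B, and in CON pool A 16883 for Dapma7bEVm010516_96901, 106 for Dapma7bEVm030726_96833, 58.7 for Dapma7bEVm001276_97859 and 219.5 for Dapma7bEVm004490_96074. In XtraC pool A they were 60242.5 for Dapma7bEVm002814_97242, 24814 for Dapma7bEVm028555_96088 and 224 for Dapma7bEVm010082_95834.

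Values at 66.67 and 6.677 µM differed by the test of the difference itself (edgeR, adjusted p under 0.05) in 24 of 1410 probes (1.7%). Against DMSO 0 probes were called at either level in that model. Of the 24 comparisons 0 passed without the letter as a block, and 0 without 66.67 µM pool C, 6.677 µM pool A or 6.677 µM pool C. The 10 largest log2 fold changes, 66.67 over 6.677 µM, were 6.82 for Dapma7bEVm010082_95834, 4.73 for Dapma7bEVm006156_97367, -1.02 for Dapma7bEVm004415_98049, -0.75 for Dapma7bEVm004430_96597 and -0.73 for Dapma7bEVm028071_96843. They were 0.73 for Dapma7bEVm004372_97365, -0.69 for Dapma7bEVm019267_97281, -0.60 for Dapma7bEVm015369_96857, 0.55 for Dapma7bEVm007609_96495 and 0.54 for Dapma7bEVm009581_96599.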

How the results depend on the processing

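With the 3 levels together 0 probes passed in all 28 alternatives, and at 21.1 µM 0 in all 26. At 66.67 µM 2 passed with no filter on low counts, 5 in DESeq2 and 3 with 30 libraries, and leaving out libraries gave 0 to 2. At 6.677 µM 22 passed in DESeq2 and 12 with 30 libraries, and leaving out libraries gave 0 to 5. Between 66.67 and 6.677 µM, where 24 passed, 0 did without the replicate block, 11 with no filter, 82 in DESeq2, 82 with 30 libraries and 7 without the 2 libraries under 50% of the median total. Leaving out a letter or 1 library gave 0 to 33, with 0, 9 and 0 without letters A, B and C. For this comparison the 30-library model and leaving out single or small libraries were chosen after seeing the data, as was leaving out small libraries for the intervals below. Against the 5 lower concentrations 43 passed in DESeq2. For phthalazinone and for CON against XtraC 0 passed in all 7 alternatives each.

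The share of intervals within 2-fold, 90.9%, was 59.6% with no filter on low counts, 85.3% against the CON pools alone, 85.5% against the XtraC pools alone, 94.0% with the 9 pools as 1 group, 88.4% without the 2 smallest libraries, and 85.6% to 90.0% with libraries left out. Without the replicate block it was 89.8%, and 0 probes passed for the levels together (34 at an unadjusted p under 0.05, against 47). The log2 fold change of Dapma7bEVm014939_97098 at 66.67 µM, 0.45, was -0.16 in limma on the deposited log2 values, which are not scaled for library total. The cause of the other changes was not tested.

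Whether letters pair the pools was checked on deviations from group means. Same-letter pairs correlated at 0.06 on average over 27 pairs (-0.53 to 0.62; 13 above 0.1), other-letter pairs at -0.03, and 8 of 15 libraries correlated best with their own letter. Deviations of a group sum to 0, so the other-letter mean follows from the same-letter mean and is no separate baseline. The number expected in place of 8 was not worked out. The letters were thus not shown to pair the pools.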
